A study of Mus musculus with 8 samples.

Results

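After miR-125b was added to 2 mouse pre-B leukaemia lines, few transcripts were lower or higher by much in all 4 matched comparisons with a control microRNA. The gene with the largest difference common to all 4 was Arid3a, which was lower. The lines were 70Z/3 and 18-81. Each received 1 of 2 synthetic microRNA duplexes, pre-miR-125b or the control miR-Neg, at 10 nM with a lipid transfection reagent. The medium was renewed after 8 h and RNA was taken after 48 h. The 4 groups were 70Z/3 with miR-Neg, 70Z/3 with miR-125b, 18-81 with miR-Neg and 18-81 with miR-125b, with 2 replicates each, so 8 RNA samples on 8 one-colour microarrays. Controls and treated cells alike carried a duplex and the reagent, and no untransfected sample was among them. The design text speaks of 2 independent experiments. Nothing else says how far the replicates were separate cultures, so p-values measure the spread between these samples, and each line is a single line.

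The replicate numbers in the sample titles match each miR-125b sample with a miR-Neg sample of its own line. That gives 4 matched differences, miR-125b minus miR-Neg, on the log2 scale: 70Z/3 pairs 1 and 2, and 18-81 pairs 1 and 2. Values are log2 of the intensity minus the array's 75th percentile, called the level below. A feature is a 60-base probe for 1 transcript. Of the 55681 features on the array, 19146 were well above background on all 8 arrays, by the scanner software's own call. The members are the 2049 of these 19146 (10.7%) whose 4 differences have the same sign. With miR-125b, 1285 features (6.71%) were lower in all 4 pairs and 764 (3.99%) were higher. Because the signs chose the members, their own differences are given as a description and are not tested as a set.

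MicroRNAs are short RNAs that guide Argonaute proteins to messenger RNAs, mostly through pairing of their seed, bases 2 to 8, with sites in the 3′ untranslated region. The paired messenger is destabilised or less translated, so direct targets tend to be lower after a microRNA is added. miR-125b is known from blood stem and progenitor cells, where an excess can lead to leukaemia, and transcripts of apoptosis, p53 and B-cell regulators have been reported among its targets. Pre-B cells are B-lymphocyte precursors that have rearranged an immunoglobulin heavy chain gene. Of 35 B-cell precursor genes, 29 to 31 were well above background on each array. Ighm, Rag1, Rag2 and Kit, defining genes of the lineage or its precursors, were not well above background on any of the 8 arrays by their brightest feature.

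The mature microRNA comes from 2 genes, Mir125b-1 on chromosome 9 and Mir125b-2 on chromosome 16 (RefSeq, GRCm38.p6), and both give the same sequence, shown here with its seed in capitals because every site below is read from it:
miR-125b: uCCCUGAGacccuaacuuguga

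The DNA letters that pair with the whole seed are CTCAGGG. They occur in the 60-base probes of 9 features that were lower in all 4 pairs and of 3 that were higher. The following stretches of those probes show some of the named genes, with the match in capitals. Ppat and Mcl1 are on the list of reported targets used below, and Inpp5k is a member with the match that was higher:
Ppat: acacagaaaCTCAGGGaa
Mcl1: gtcttacacgtctCTCAGGGaa
Galnt12: gagttagagttctCTCAGGGgg
Slc46a3: ggcttgctggcctCTCAGGGat
Ptpn18: aaaataaaagtttCTCAGGGc
Inpp5k: caggagaagacacCTCAGGGag

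The probes lie, in mm9 coordinates of the array files, at chr5:77342626-77342685 for Ppat, chr3:95466855-95466914 for Mcl1, chr4:47135796-47135855 for Galnt12, chr5:148690145-148690204 for Slc46a3, chr1:34530561-34530620 for Ptpn18 and chr11:75462152-75462211 for Inpp5k. The 4 differences of the Ppat feature were -1.03 and -2.04 in 70Z/3 and -0.10 and -0.23 in 18-81. Those of Mcl1 were -0.41, -0.61, -0.07 and -0.16. Ppat encodes the first enzyme of purine synthesis and Mcl1 a survival protein of the Bcl-2 family. In Galnt12, Slc46a3 and Ptpn18 the 70Z/3 differences lay between -0.47 and -1.51, and the 18-81 differences between -0.04 and -0.13. The Inpp5k feature was higher by 0.01 and 0.07 in 70Z/3 and by 0.14 and 0.17 in 18-81. A match in a probe is a description of its letters, since a probe covers only a short part of a transcript.

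Across all 19146 features, 78 (0.407%) held CTCAGGG, against 0.70% of the members that were lower and 0.393% of those that were higher. The shorter match to bases 2 to 7 followed by A, TCAGGGA, stood in 0.371% of all features, 0.467% of lower members and 0.393% of higher members. With TCAGGG alone the shares were 1.34%, 1.32% and 1.57%. The letters were searched on the transcript strand only, and the shorter match is part of the others. The median mean difference was -0.12 for features with CTCAGGG, -0.06 with TCAGGGA and -0.08 with TCAGGG, against -0.07 for all features. Relative to all features, the CTCAGGG median by pair was -0.13 and -0.06 in 70Z/3 and -0.05 and 0.02 in 18-81.

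The number of members was not above what the signs give by counting. If 4 signs were independent and equally likely, 2 of 16 sign patterns would agree throughout, which is 12.5% or 2393 of 19146 features. If each pair kept its own share of features below 0, the count would be 2260 (11.8%), made of 1385 lower and 875 higher. The 2049 found were fewer than both. These are products of shares and carry no p, since features on 1 array are not independent.

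The 2 lines differed in how well their own replicates agreed. The 2 differences had the same sign for 68.1% of features in 70Z/3 and for 50.5% in 18-81, where 50% is what 2 unrelated signs give. Of 6832 features that agreed within both lines, 30% had the same sign in both. The most common pattern was lower in both 70Z/3 pairs and higher in both 18-81 pairs, with 3716 features. Across features, which are not independent replicates, the 2 pairs correlated at r = 0.45 in 70Z/3 and r = 0.11 in 18-81, while correlations between lines lay between -0.30 and 0.01. Each correlation within a line compares arrays of separate samples, and all 8 arrays share 1 slide.

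**Figure D1:**
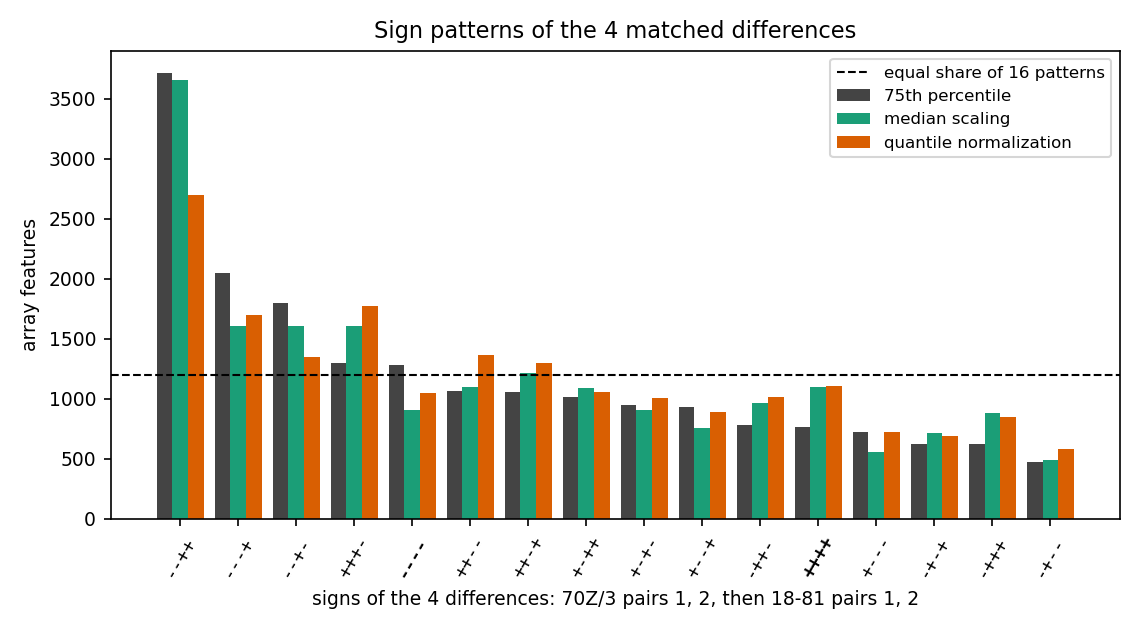
Number of array features (y axis) with each of the 16 sign patterns of the 4 matched differences (x axis), under 3 scalings of the arrays, over the 19146 features well above background on all 8 arrays. The dashed line is an equal share for each pattern. The pattern lower in 70Z/3 and higher in 18-81 is the tallest under each scaling, while the bold patterns of 4 equal signs, 1285 lower and 764 higher with the 75th percentile, lie near or under the line.

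Array brightness moved with the duplex in 70Z/3. The 75th percentile of the intensity was 512.8 and 337.7 on the miR-Neg arrays and 701.5 and 504.0 on the miR-125b arrays, against 709.5 and 575.3 with miR-Neg and 725.1 and 568.6 with miR-125b in 18-81. The median difference over all features was -0.07 and -0.24 in the 70Z/3 pairs and 0.02 and 0.04 in the 18-81 pairs. The split of the members depends on the scaling: 62.7% were lower with the 75th percentile, 48.5% after quantile normalization, 45.3% with each array set on its median, 67.0% after normexp background correction and 48.7% in the authors' deposited series table. The total stayed between 2005 and 2175 under these 5 scalings. Under the first 3 of them together, 1407 features had 4 equal signs, 727 lower and 680 higher. Among the 4787 brightest features, 8.44% were lower and 1.84% higher in all 4 pairs with the 75th percentile, and 5.77% and 6.73% after quantile normalization. The excess of lower members, 1285 against 764, is thus found under 2 of the 5 scalings and not under the others.

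Most members moved by little. The smallest of the 4 differences had a median size of 0.05 in both directions. It was at least 0.2 in 73 lower and 46 higher features, and at least 0.5 in 3 lower and 2 higher. At the edge of the rule, 1934 of the 5046 features that were lower in 3 pairs only, and 999 of the 3989 that were higher in 3 pairs only, missed by a remaining difference under 0.1 in size. The members nearest to 0 had a smallest difference of 4e-06 (lower) and 9.3e-05 (higher), and the nearest non-members missed by 8.3e-05 and 3.7e-05. The median of the members' mean differences was -0.27 for the lower and 0.25 for the higher features.

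**Figure D2:**
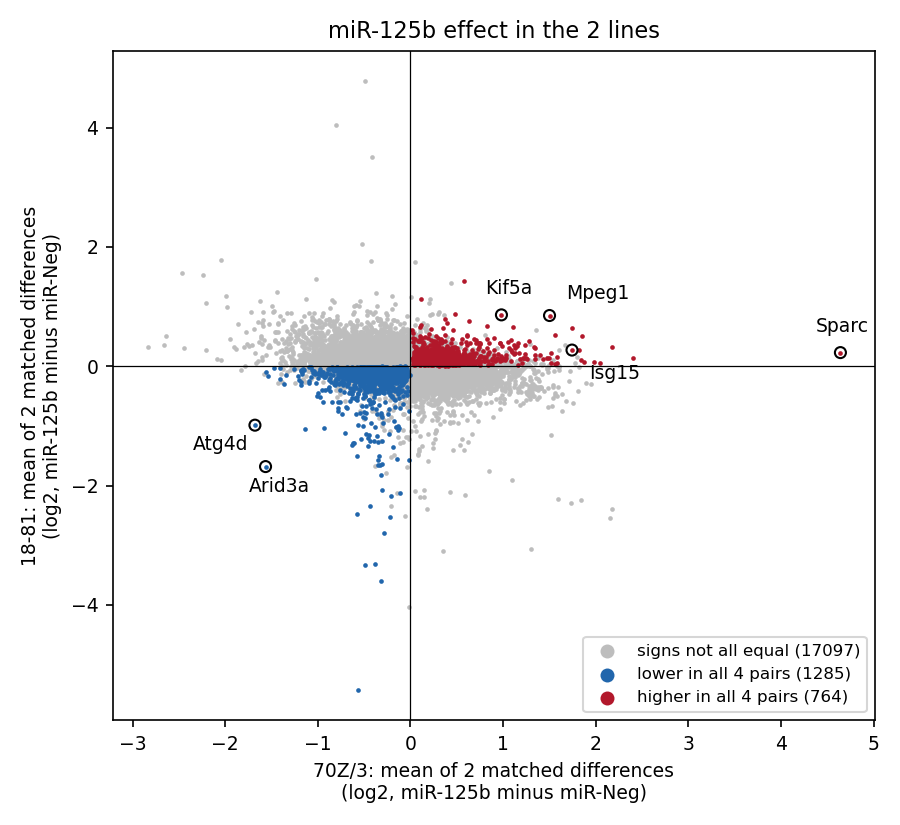
Mean of the 2 matched differences in 70Z/3 (x axis) against that in 18-81 (y axis), log2, for each of the 19146 features, with members in blue (1285 lower) and red (764 higher) and the other 17097 features in grey. Circled features are named. Arid3a, Atg4d, Mpeg1 and Kif5a lie away from both axes, whereas Sparc and Isg15 lie far out in 70Z/3 and near 0 in 18-81.

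The averaged effect over both lines was tested with limma on 25290 features, those with both arrays of some group well above background. At a Benjamini-Hochberg adjusted p of 0.05, 0 features (0%) passed; 310 lower and 370 higher features had an unadjusted p under 0.05, and the smallest adjusted p was 0.538. The difference of the effects between the lines also gave 0 features (0%), with 384 and 457 at an unadjusted p under 0.05 and a smallest adjusted p of 0.665. With the replicate number and line as a block, the average still gave 0 features, with 1095 lower and 861 higher at an unadjusted p under 0.05. Same-numbered samples deviated together across the lines as well as within them, so the deviations do not single out this block. Of the members, 76 lower and 52 higher features had an unadjusted p under 0.05 for the average, and none had an adjusted p under 0.538. Members were chosen by equal signs of the same differences that make up this average, and that choice favours small p-values. The counts of 76 and 52 are therefore a description and do not test the members as a set. Leaving out 18-81 miR-125b replicate 2 gave 6 features for the average and 6 for the difference, leaving out 18-81 miR-Neg replicate 2 gave 1 for each, and leaving out 18-81 miR-125b replicate 1 gave 1 for the average. No gene named below passed the test on all samples, so each is given by its values.

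Arid3a, which encodes a DNA-binding protein of B-lineage cells and a reported miR-125b target, had the largest smallest difference among lower features. At chr10:79417698-79417757 (mm9) its level with miR-Neg was 1.19 and 1.07 in 70Z/3 and 1.84 and 1.72 in 18-81, and with miR-125b -0.53 and -0.34 in 70Z/3 and -0.20 and 0.39 in 18-81. All 4 miR-125b arrays lay below all 4 miR-Neg arrays, in each line and over both. The 4 differences were -1.72, -1.41, -2.04 and -1.33, with a mean of -1.62 ± 0.21 (SE) or 3.08-fold lower. This SE, like each SE below, is that of the limma fit of group means over 8 arrays. It leaves out the pairing, so it is not the spread of the 4 matched differences. The adjusted p from limma was 0.538. The effects in the lines were -1.56 and -1.68, and their difference, -0.12 ± 0.43 (SE), was smaller than its error.

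A second Arid3a feature, at chr10:79417377-79417436, was also lower in all 4 pairs, by -1.63 and -1.10 in 70Z/3 and -0.35 and -0.25 in 18-81. Its levels with miR-Neg were 2.44, 2.29, 3.21 and 2.98, and with miR-125b 0.81, 1.19, 2.86 and 2.73, in the order of 70Z/3 replicates 1 and 2 and 18-81 replicates 1 and 2. The groups did not overlap within either line, but the 18-81 arrays with miR-125b lay above the 70Z/3 arrays with miR-Neg. The 2 features thus gave the same direction in each pair and different sizes in 18-81.

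Atg4d encodes a protease of autophagy, the degradation of cell contents in lysosomes. Its level with miR-Neg was 4.98 and 6.09 in 70Z/3 and 3.58 and 3.61 in 18-81, and with miR-125b 3.51 and 4.19 in 70Z/3 and 2.22 and 3.00 in 18-81. The groups did not overlap within either line. The mean of the 4 differences, -1.47, -1.89, -1.36 and -0.62, was -1.33 ± 0.32 (SE), or 2.52-fold lower.

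**Figure D3:**
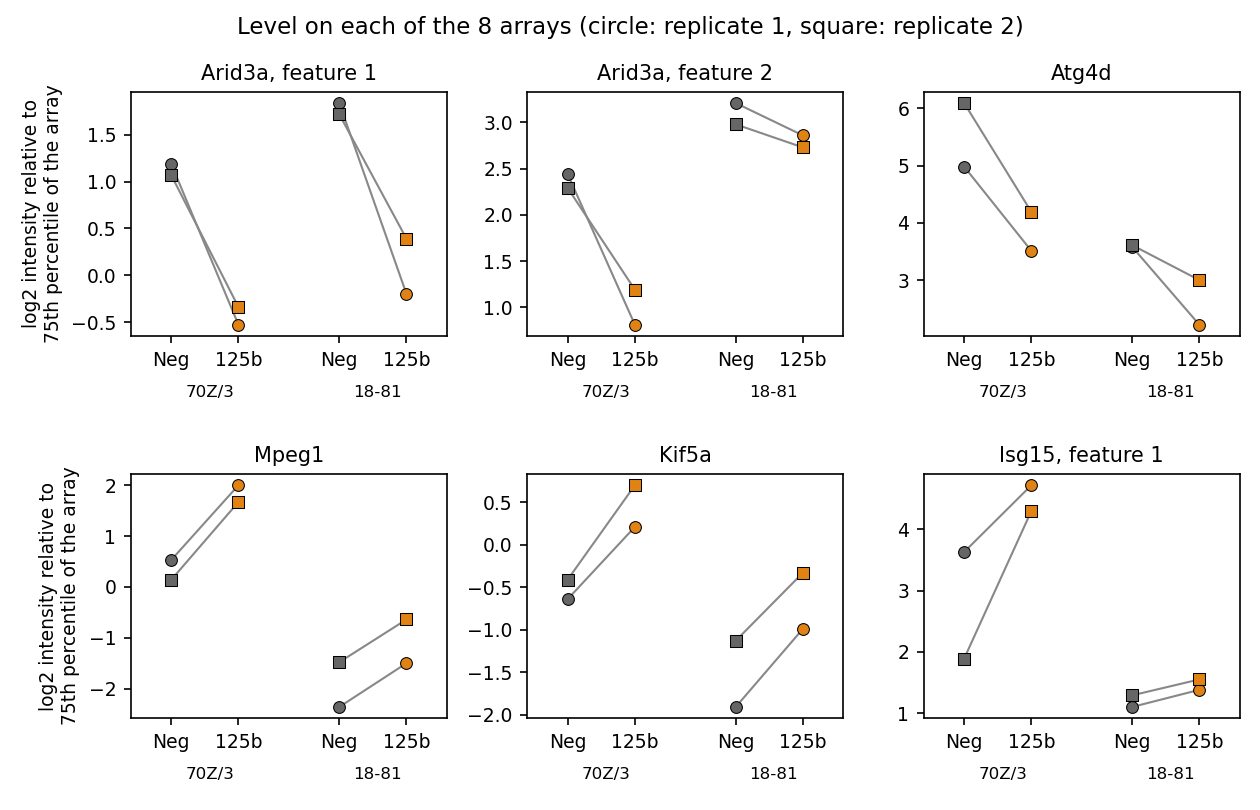
Level of 6 features on each of the 8 arrays (y axis, log2 intensity relative to the array's 75th percentile), with miR-Neg in grey and miR-125b in orange for 70Z/3 and 18-81 (x axis). Lines join arrays of the same line and replicate number. Both Arid3a features and Atg4d slope down in all 4 pairs, Mpeg1, Kif5a and Isg15 slope up, and the Isg15 slopes in 18-81, 0.28 and 0.26, are far smaller than the 1.08 and 2.40 in 70Z/3.

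The next features by the same rule, the size of the smallest difference, included that of Tmed9, a carrier protein of the early secretory pathway (-0.49, -0.93, -1.11, -1.13). Ndufc1, a subunit of respiratory complex I, differed by -0.40 to -0.97, and Txn1, the cytosolic thioredoxin, by -0.39 to -1.08. Ccnj, Rtraf, Dcaf10, Lsm14b, Srsf3 and Klhl21 were also among the 12 genes, with mean differences from -0.52 for Lsm14b to -1.10 for Srsf3, which encodes a splicing factor. These genes belong to different processes. In the lower ranking 10 features without a gene symbol, and in the higher ranking 3, were passed over.

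Of the 12 lower genes, 7 had another feature on all 8 arrays, and all other features agreed in 3 of them, Arid3a, Ccnj and Lsm14b. For Tmed9, Rtraf and Srsf3 the other features had mean differences from -0.29 to -0.53 without 4 equal signs, and for Dcaf10 the other feature had a mean of 0.06. Ccnj, a cyclin, had levels with miR-Neg of -2.16 and -1.48 in 70Z/3 and -2.60 and -2.47 in 18-81, and with miR-125b of -2.55 and -2.13 and of -3.73 and -3.03. Its 2 features had mean differences of -0.68 ± 0.26 and -0.50 ± 0.20 (SE). The first feature's groups overlapped slightly in 70Z/3 and not in 18-81.

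Among higher features the largest smallest differences were those of Mpeg1 and Kif5a. Mpeg1 encodes perforin-2, a pore-forming protein of macrophages and other immune cells. Its level with miR-Neg was 0.53 and 0.14 in 70Z/3 and -2.36 and -1.48 in 18-81, and with miR-125b 2.00 and 1.67 in 70Z/3 and -1.50 and -0.64 in 18-81. The differences were 1.47, 1.53, 0.86 and 0.84, a mean of 1.18 ± 0.30 (SE) or 2.26-fold higher. The groups did not overlap in 70Z/3, while in 18-81 the higher miR-Neg array, -1.48, was above the lower miR-125b array. Mpeg1 is not on the list of 12 myeloid markers used here. Of these, Cd14, Adgre1, Cebpa and Cebpb were above background on no array, and 0 of the 4 measured on all 8 arrays were higher in all 4 pairs. The list's summed level in 70Z/3 was 41.1 to 48.4 with miR-Neg and 32.4 to 35.2 with miR-125b, in units of the array's 75th percentile. In 18-81 it was 44.6 to 66.4 and 44.9 to 81.2. In 70Z/3, 5 to 6 of the 12 were above background with miR-Neg and 8 with miR-125b, whose part in the result was not tested. In bulk RNA, fewer cells of a type and less RNA per cell cannot be told apart.

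Kif5a, a kinesin motor heavy chain, had levels with miR-Neg of -0.64 and -0.41 in 70Z/3 and -1.91 and -1.13 in 18-81, and with miR-125b of 0.21 and 0.70 and of -0.99 and -0.33. The 4 differences lay between 0.80 and 1.12, with a mean of 0.92 ± 0.27 (SE). The groups did not overlap in 70Z/3, and in 18-81 the lowest miR-125b array, -0.99, was above both miR-Neg arrays.

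The other higher genes were Bex6, Inpp5b, Cdc42ep4, Abcb1a, Il4i1, Synj2, Ifitm3, Lat, Adssl1 and Kmo. Abcb1a, a drug efflux pump, differed by 1.02 and 1.54 in 70Z/3 and by 0.40 and 0.43 in 18-81. Il4i1, an amino acid oxidase of lymphoid and myeloid cells, differed by 0.87, 2.62, 0.89 and 0.39, and Lat, an adaptor of T-cell receptor signalling, by 1.00, 0.93, 0.41 and 0.36. Kmo and Synj2 had the lowest mean differences of the 12, 0.56 and 0.52. Of the 12 higher genes only Inpp5b and Synj2 had other features, and these did not agree: the Inpp5b feature had a mean difference of -0.03, and the 2 of Synj2 had means of -0.26 and -0.32.

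**Figure D4:**
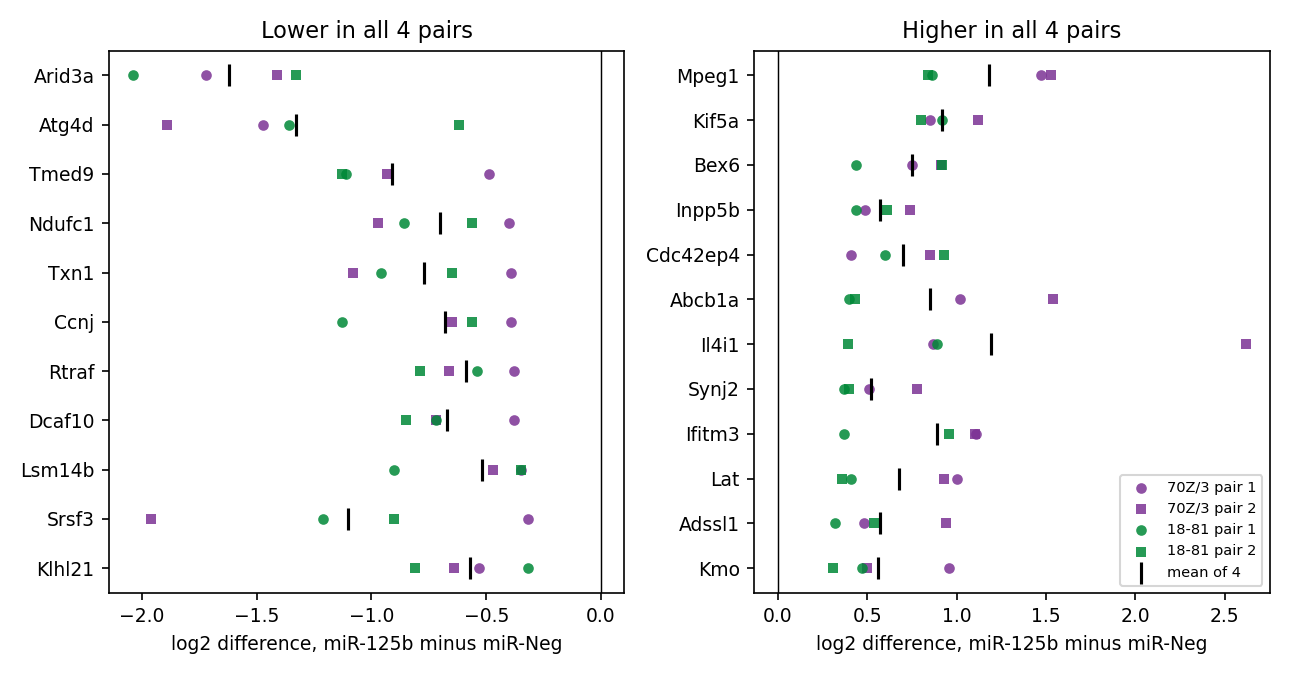
The 4 matched differences (x axis, log2, miR-125b minus miR-Neg) of genes among the 12 lower and 12 higher with the largest smallest difference (y axis), with 70Z/3 in purple, 18-81 in green, pair 1 as circles and pair 2 as squares; the black bar is the mean of the 4. Arid3a has no difference nearer to 0 than -1.33 and Mpeg1 none nearer than 0.84, while most of the other genes have one between 0.3 and 0.5 in size.

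Some members were far from even between the lines. Sparc, a secreted matrix protein, differed by 4.60 and 4.68 in 70Z/3 and by 0.15 and 0.31 in 18-81. Its level in 70Z/3 went from -0.35 and 0.69 with miR-Neg to 4.25 and 5.38 with miR-125b, and in 18-81 it was -2.71 and -3.26 against -2.56 and -2.95. The difference of the effects was -4.41 ± 0.70 (SE), with an unadjusted p of 2.38e-04 and an adjusted p of 0.859 from limma. Over the 19146 features alone and with the block, an alternative chosen after the data were seen, Sparc was the 1 feature to pass, with adjusted p of 0.00517 for the average and 0.0101 for the difference. Of the other stromal markers, Col3a1, Dcn and Pdgfra were above background on no array. The summed level of all 8, with Sparc among them, was 45.0 to 70.0 with miR-Neg and 65.4 to 79.9 with miR-125b in 70Z/3. In 18-81 it was 54.0 to 67.7 and 18.1 to 20.1. The 70Z/3 sums thus hold the change of Sparc itself and say nothing separate about the other markers. The part of such cells in the result was not tested.

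One feature of Birc5, an inhibitor of apoptosis expressed in mitosis, was lower by far more in 18-81 than in 70Z/3. Its differences were -0.15 and -0.98 in 70Z/3 against -6.55 and -4.31 in 18-81. A second Birc5 feature differed by -0.19, -0.91, -0.10 and -0.07. Another Birc5 feature had a mean difference of -0.30 without 4 equal signs. The 2 features with 4 equal signs were at chr11:117714057-117714116 and chr11:117711112-117711171, and the large 18-81 values were not shared between them.

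Where a gene had 2 or more features on all 8 arrays, their agreement is a check that the choice of a single feature does not offer. Of 2777 such genes, all features were lower in all 4 pairs under 3 scalings in 18 and higher in 23. Among the 19146 single features, 3.80% were lower and 3.55% higher under the same 3 scalings. The lower ones included Arid3a, Ccnj, Lsm14b, Tlcd3a, Atl2 and Nfyb. Nfyb, a subunit of the CCAAT-binding factor NF-Y, had 3 features with mean differences of -0.35, -0.29 and -0.36. The probes of the first 2, at chr10:82212015-82212074 and chr10:82212032-82212091, overlap, so their agreement is a weaker check. The 2 features of Atl2, which shapes the endoplasmic reticulum, had means of -0.33 and -0.31. Among the higher ones were Isg15, Vps13c, Pml, Serpinb6c, Dnaaf4 and Cnn2. The 2 Serpinb6c probes also overlap each other. The 2 Pml features both had a mean of 0.34 ± 0.21 (SE), and those of Cnn2, an actin-binding protein, had means of 0.47 and 0.54.

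Genes were next read by list, with the brightest feature standing for each gene. Of 11310 genes measured on all 8 arrays, 775 (6.85%) were lower and 478 (4.23%) higher in all 4 pairs. Of 61 reported miR-125b targets, 50 were measured, and 13 of the 50 (26%) were lower and 0 higher in all 4 pairs. Under the other 4 scalings 9 to 12 were lower and 1 higher, and 9 were lower under the first 3 scalings together. The list's median lay -0.15 from the median of all features; by pair it was -0.31 and -0.02 in 70Z/3 and -0.07 and -0.05 in 18-81. By pair, 38 and 35 of the 50 (76% and 70%) were below 0 in 70Z/3, beside 59.3% and 65.1% of all features. In 18-81 the counts were 31 and 26 (62% and 52%), beside 42.8% and 43.8%. Without 18-81 replicate 2, the count lower over 3 signs was 23 of 50, beside 17.4% of all features. It was 15 without 18-81 replicate 1, beside 16.1%. Without 70Z/3 replicate 1 or replicate 2 it was 14 each, beside 10.5% and 9.17%. Between 1 and 4 of the 50 were higher over 3 signs in these settings.

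The 13 were Arid3a, Prdm1, Ets1, Bak1, Mcl1, Ppp2ca, Map3k10, Map3k11, Scarb1, Ccna2, Ppat, Pcsk7 and Lactb. Prdm1, the transcription factor that drives plasma cell differentiation, had levels with miR-Neg of -2.86 and -2.46 in 70Z/3 and -3.52 and -3.19 in 18-81, and with miR-125b of -3.46 and -2.64 and of -4.04 and -3.70. Its differences, -0.60, -0.18, -0.52 and -0.51, had a mean of -0.45 ± 0.26 (SE), and the groups overlapped in 70Z/3 and not in 18-81. Map3k10, a kinase of the JNK pathway, differed by -0.64 and -0.20 in 70Z/3 and -1.54 and -0.36 in 18-81. Lactb, a mitochondrial protein, differed by -0.81, -0.43, -0.09 and -0.38, and Ppp2ca, a phosphatase catalytic subunit, by -0.20, -0.41, -0.03 and -0.18.

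Bak1, a pore-forming protein of apoptosis, was lower by -0.19, -0.02, -0.14 and -0.12, which did not hold under all 3 scalings. Neither did the signs of Ets1, Map3k11 and Scarb1. The first Ets1 feature differed by -0.38, -0.22, -0.09 and -0.64, and the second, with -0.70, 0.09, -0.08 and -0.01, did not have 4 equal signs. Ccna2, a cyclin of S phase and mitosis, differed by -0.11, -0.58, -0.07 and -0.25.

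Most reported targets did not have 4 equal signs. Abtb1 differed by -1.67 and -1.90 in 70Z/3 and by 0.12 and -0.11 in 18-81. Its level in 70Z/3 was 3.90 and 4.37 with miR-Neg and 2.22 and 2.48 with miR-125b, with no overlap, and in 18-81 it was 3.02 and 2.87 against 3.14 and 2.76. The difference of its effects was 1.79 ± 0.43 (SE), with an unadjusted p of 0.00343 and an adjusted p of 0.944 from limma. Irf4, a regulator of the pre-B to B transition, differed by -0.84 and -1.27 in 70Z/3 and by -0.04 and 0.12 in 18-81. Trp53inp1, a stress-induced protein of the p53 pathway, followed with -1.53 and -0.84 against 0.20 and -0.16, and Dus1l with -1.14 and -1.64 against -0.05 and 0.08.

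For Trp53, the gene of p53, the differences were 0.32, 0.95, -0.13 and -1.05, for Bbc3, a p53-induced killer protein, 0.42, 0.87, 0.14 and -0.03, and for Bmf, another killer protein, -0.83, 0.35, 0.20 and 0.27. Arid3b, a relative of Arid3a, differed by -0.22, 0.74, -0.19 and -0.18. Tnfaip3, Tet2, Stat3 and Lin28a each had differences of both signs, and no Lin28b feature was well above background on all 8 arrays.

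Among lists with 10 or more measured genes, the interferon-response genes had the largest share of higher members. Of 36 genes 20 were measured, and 8 (40%) were higher and 0 lower in all 4 pairs: Oasl1, Irf9, Isg15, Ddx58, Ifitm3, Parp14, Trim30a and Gbp3. These genes are induced by interferons, the cytokines of antiviral defence. The 8 kept 4 equal signs under 3 scalings; with quantile normalization or median scaling alone 11 genes were higher, with normexp 7, and with quantile normalization or the deposited table there was also 1 lower gene. The sizes came from 70Z/3: the list's median relative to all features was 0.49 and 1.51 in its pairs and 0.01 and 0.06 in 18-81. Without 70Z/3 miR-Neg replicate 2, the dimmest array, the list's median over all pairs was 0.278, against 0.53 with all samples. Leaving out the other 70Z/3 miR-Neg sample, replicate 1, gave 0.846.

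Isg15, a ubiquitin-like protein, had levels with miR-Neg of 3.63 and 1.89 in 70Z/3 and 1.10 and 1.29 in 18-81, and with miR-125b of 4.72 and 4.30 and of 1.38 and 1.55. No group overlapped the other within a line. The second Isg15 feature differed by 1.17 and 2.52 in 70Z/3 and by 0.12 and 0.09 in 18-81. Ddx58, the RNA sensor RIG-I, differed by 0.45, 1.85, 0.14 and 0.54, and Oasl1 by 0.54, 1.39, 0.11 and 0.66. Ifitm3, a membrane protein that restricts virus entry, was the only one of the 8 among the 12 highest genes above, with 1.11, 1.10, 0.37 and 0.96, a mean of 0.89 ± 0.22 (SE). Irf9, a transcription factor of the interferon signal, differed by 0.68 and 2.49 in 70Z/3 and only 0.02 and 0.11 in 18-81.

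The remaining 12 genes did not have 4 equal signs. Dhx58 differed by 1.02 and 2.77 in 70Z/3 and by -0.11 and -0.45 in 18-81, and Xaf1 by 0.71 and 2.45 against 0.04 and -0.03. By pair, 17 and 18 of the 20 genes (85% and 90%) were above 0 in 70Z/3, beside 40.7% and 34.9% of all features. In 18-81 the counts were 17 and 12 (85% and 60%), beside 57.2% and 56.2%, so the share in the second pair was near that of all features.

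**Figure D5:**
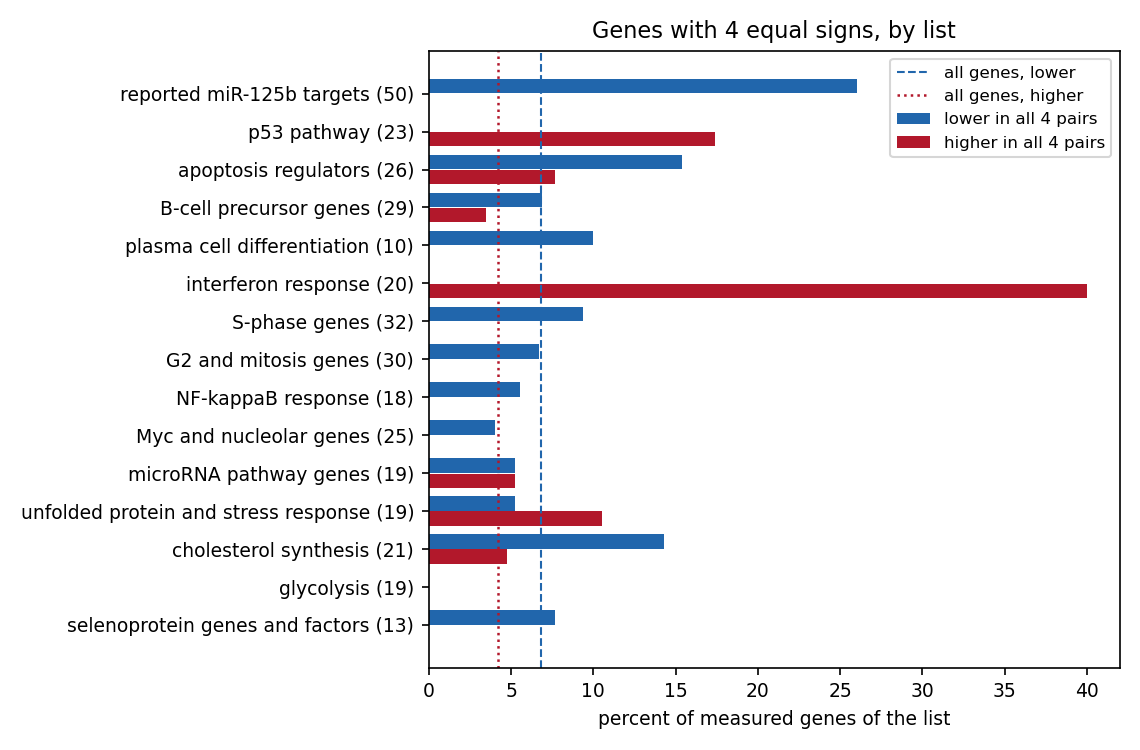
Percent of the measured genes of each list (y axis, with the number measured in brackets) that were lower (blue) or higher (red) in all 4 matched pairs, for lists with 10 or more measured genes. Dashed and dotted lines are the shares over all 11310 genes, 6.85% lower and 4.23% higher. The reported targets reach 26% lower and the interferon-response genes 40% higher.

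The promoters of the 8 interferon members were searched for a motif because these genes were higher together. Stretches from some of the genes with a match are shown. The motif searched was the core of the interferon-stimulated response element, 2 copies of GAAA with 2 bases between them, on both strands, in RefSeq windows of GRCm38.p6 that run from 250 bases before to 50 after a gene's start. It was in 5 of the 7 higher genes that have a window (Ddx58, Gbp3, Ifitm3, Isg15 and Trim30a), in 4 of 9 other measured genes of the list, and in 1079 of 27025 genes (3.99%) with a window. Irf9 and Oasl1 had none in this window. In these stretches the match is in capitals, and Gbp3 and Trim30a hold it on the opposite strand, as 2 copies of TTTC:
Isg15: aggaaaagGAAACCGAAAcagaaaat
Gbp3: ggacacagTTTCAGTTTCtatttccc
Trim30a: ttctttagTTTCTTTTTCtcagttcc

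The windows are chr4:156200769-156201068 for Isg15, chr3:142559794-142560093 for Gbp3 and chr7:104465144-104465443 for Trim30a. In Isg15 the printed match begins at -72 from the gene's start and 2 further matches overlap it, at -78 and -66. In Gbp3 the printed match begins at -45 and a further match overlaps it, at -39. The printed match in Trim30a begins at -36, and another Trim30a window, chr7:104446076-104446375, holds a match at 2.

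Of the p53 pathway, 23 of 30 genes were measured, and 4 (17.4%) were higher and 0 lower. Over all genes the shares were 4.23% higher and 6.85% lower. With quantile normalization or in the deposited table, 4 genes of the list were higher and 2 lower. Pmaip1, a killer protein of the Bcl-2 family, differed by 0.23, 0.65, 0.10 and 0.29, and Sesn2, a stress-induced inhibitor of mTORC1 signalling, by 0.21, 0.60, 0.10 and 0.30. Ddit4 differed by 0.01, 1.32, 0.04 and 0.15 and Xpc, a DNA damage sensor, by 0.19, 0.06, 0.03 and 0.22. The mean difference of Xpc, 0.12, was smaller than the SE of 0.19 from the limma fit, which leaves out the pairing. The SD of its 4 matched differences was 0.09.

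Among apoptosis regulators 4 of 26 measured genes (15.4%) were lower, Mcl1, Bak1, Casp6 and Birc2, and 2 (7.69%) were higher, Bcl2l1 and Pmaip1. Over all genes the shares were 6.85% and 4.23%. Of the S-phase genes 3 of 32 were lower (Mcm5, E2f8 and Slbp) and 0 higher, and of the G2 and mitosis genes 2 of 30 were lower (Ccna2 and Aurkb) and 0 higher. The 2 features of Slbp, which binds histone messengers, had mean differences of -0.41 and -0.35. The lower shares of the S-phase and the G2 and mitosis genes, 9.38% and 6.67%, stood beside 6.85% of all genes.

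Of the B-cell precursor genes, 2 of 29 were lower (6.90%) and 1 was higher (3.45%), beside 6.85% and 4.23% of all genes. Igll1, a surrogate light chain component, differed by -0.16, -1.54, -0.81 and -0.41, and Syk, a kinase of pre-B cell receptor signalling, by -0.63, -0.06, -0.85 and -2.46, though neither kept 4 equal signs under 3 scalings. Blnk, the adaptor that Syk acts on, differed by 0.12, 0.02, 0.16 and 0.06. Prdm1 was the 1 lower gene of 10 in the plasma cell list.

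In the cholesterol synthesis list 3 of 21 genes (14.3%) were lower, among them Idi1 and Cyp51, and 1 (4.76%), Fdps, was higher. Over all genes the shares were 6.85% lower and 4.23% higher. Idi1, an enzyme of isoprenoid synthesis, differed by -0.38, -0.99, -0.07 and -0.10. In the microRNA pathway list 1 of 19 (5.26%) was lower, Dgcr8, and 1 (5.26%) higher, Ago2, an Argonaute protein. Of the 4 Ago2 features 2 were members, with mean differences of 0.34 and 0.31. The other 2, with means of -0.33 and 0.13, did not have 4 equal signs. Of the unfolded protein and stress genes 1 of 19 (5.26%) was lower, Pdia4, and 2 (10.5%) were higher, Ddit3 and Sesn2. Ddit3, a stress-induced transcription factor also called CHOP, differed by 0.00, 3.69, 0.54 and 0.46. Its level on 70Z/3 miR-Neg replicate 2 was 0.20, against 2.92 on replicate 1, so the large value rests on that array.

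The remaining lists had few members. One of 18 NF-kappaB response genes was lower (Birc2), as were 1 of 25 Myc and nucleolar genes (Nop58) and 1 of 13 selenoprotein genes and factors (Secisbp2), and none of these lists had a higher gene. Of 19 glycolysis genes, 0 were lower or higher, as were 0 of 6 T-cell, 0 of 4 myeloid and 0 of 2 erythroid markers measured on all 8 arrays. Of 2 measured stromal markers 1 was higher, Sparc. Of the genes named from these lists beyond the reported targets, Igll1, Syk, Mcm5, Nop58, Dgcr8, Cyp51, Fdps and Secisbp2 lost their 4 equal signs under 1 or more of the 3 scalings.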

How the data were processed

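Total RNA from 8 samples, labelled with Cy3, was hybridised to 8 arrays of 1 slide, per the labels and the file headers. Per the file headers, the authors read intensity values out of the scans by Agilent Feature Extraction 10.7.3.1, which subtracts background and a spatial trend, and probe positions are those of mm9. The slide's row follows the replicate number and its column the group. Group and column therefore cannot be told apart, and neither can replicate number and row. An alternative was the deposited series table, intensity values that the authors normalized in a way not given in the sources used here.

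Each array holds 62976 spots, of which 59305 are not controls. Control spots and outlier calls (140 to 203 spots an array) were left out; no spot was saturated. Spots of a feature were averaged on the log2 scale, after subtracting the array's 75th percentile. A feature was above background on an array if at least 50% of its spots had that call. Between 38% and 45.09% of features were above background, which, with 2 replicates per group, limits the precision. Features were named through the RefSeq table of GRCm38.p6 (names only): an accession matched for 26413, the symbol for 3859 and a former symbol for 735, and the other 24674 keep the name in the files.

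Two-sided tests used limma 3.58.1 in R 4.3.3 on 25290 features, with 4 group means, empirical Bayes moderation and Benjamini-Hochberg adjustment. Same-numbered samples deviated together from their group means (r from 0.377 to 0.64, each of 6 group pairings), and 2 experiments are named in the design text. The numbers were therefore read as pairing the samples. Between groups of different lines r was 0.397 to 0.506, against 0.377 within 70Z/3 and 0.64 within 18-81. An effect of the slide's row would look the same. The fit was tested on simulated data. Named genes were the 12 per direction with a gene symbol and the largest smallest difference among features with 4 equal signs under 3 scalings (75th percentile, quantile, median), a fixed set of genes from work on miR-125b, up to 4 members per list by the size of the smallest difference, and 6 genes per direction whose features all agreed. Further list members, Sparc, Birc5 and the printed sequences were picked after their values were seen. The members and all 19 lists were chosen with earlier results of these data known. Alternatives were 4 other scalings, other filters, size thresholds, blocks and leaving out each sample. Some genes that these rules name are not reported here, and counts include them.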

Additional observations from a re-analysis of the deposited data

Results flagged for a closer look

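In 8 of 19 lists both 70Z/3 pairs lay on 1 side of the median of all features and both 18-81 pairs on the other; the difference between the lines was not tested, and some of these medians lie within 0.01 of 0. The mean of the list's 2 medians in 18-81 minus that in 70Z/3 was 0.31 for S-phase genes, -0.46 for NF-kappaB response genes, 0.20 for unfolded protein and stress genes, -0.37 for glycolysis genes and 0.15 for selenoprotein genes and factors. Among marker lists with few measured genes it was 0.77 for T-cell (6 genes), 0.59 for myeloid (4 genes) and -3.04 for stromal markers (2 genes, 1 of them Sparc). Relative to all features, the glycolysis median was 0.20 and 0.41 in the 70Z/3 pairs and -0.12 and -0.01 in the 18-81 pairs. Groups of 2 replicates are too small for a check of single outlying samples.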

How the results depend on the processing

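The count of 2049 members kept within 1.5 times under the 4 other scalings. Without a filter 18930 features agreed (17483 lower, 1447 higher); the cause was not tested. With the wider filter of 1 group, 2954 of 25290 agreed, of which 1178 were higher. A minimum size of 0.2 left 119 (73 lower, 46 higher) and one of 0.5 left 5 (3 and 2); by gene there were 1253 of 11310 (775 and 478). Agreement under 3 scalings, chosen after the data were seen, left 727 lower features. Leaving out 1 sample leaves 3 signs, of which 25% (4786) agree by counting: 3393 to 5399 agreed, 1755 to 3335 lower and 1383 to 2064 higher.

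The limma average and the difference between lines passed 0 features under every scaling and filter and with the replicate block by number (989 lower and 735 higher at an unadjusted p under 0.05) or by line and number (1095 and 861). Leaving out 1 sample gave 0 to 6 features for both: for the average 1 without 18-81 miR-125b replicate 1 (EG667078), 1 without 18-81 miR-Neg replicate 2 (Gm13194) and 6 without 18-81 miR-125b replicate 2, including Birc5 and Agap2; the lone sample is then assumed to vary like the other groups. The replicate block with the 19146 features alone, added later, gave 1 feature, Sparc, for each (adjusted p 0.00517 and 0.0101).

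Of the named features' mean differences, 13 values changed sign: Bak1 to 0.00 with quantile normalization, Npm1 to 0.02 in the deposited table, Gpi1 (-0.08) to 0.07 and 0.09 with these 2, and, leaving out 1 sample, Blnk (-0.01 to 0.19), Stard4 (-0.27 to 0.04), Gpi1 (-0.24 to 0.08) and Secisbp2 (-0.38 to 0.06). The causes were not tested. The target list's median stayed below 0 in all 14 alternatives run.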

Other observations

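Beyond named genes, the array carries features for long intergenic RNAs, of which 2514 were well above background on all 8 arrays; 109 (4.34%) were lower and 115 (4.57%) higher in all 4 pairs, against 7.00% and 4.03% of 14622 features named in the gene table. The unit with the most higher members, singled out after its values were seen, was at chr17:26911397-26917047 (mm9, forward strand by its name). Of its 10 features 9 were well above background on all 8 arrays, and 6 of the 9 were higher in all 4 pairs, also under 3 scalings. Over the 9 features the differences were 0.59 to 1.38 and 0.41 to 1.89 in the 70Z/3 pairs, 0.19 to 0.34 in the first 18-81 pair and -0.22 to 0.21 in the second. The features read 1 named unit and are not independent.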
